A study of Mus musculus with 6 samples.

Results

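The genes described here are Avp and Oxt, which encode the precursors of vasopressin and oxytocin. They were taken from the count table by their rat Ensembl identifiers, ENSRNOG00000021229 for Avp and ENSRNOG00000021225 for Oxt, and both identifiers were found among the 32623 genes of the table. The table gives no symbols, so the names were taken with the identifiers and could not be checked against it. The samples were brains collected at postnatal day 21, the end of lactation, 3 from offspring whose mothers ate a high-fat diet (MHFD group) and 3 from offspring whose mothers ate a normal diet (MND group). In the paper's methods the high-fat feeding of the dams began before mating and lasted through pregnancy and suckling, and the animals were Sprague-Dawley rats. The sample labels give the mouse strain C57BL/6 instead, while all 32623 identifiers were of the rat. No sex or litter was given for the sequenced pups, so p-values measure the spread between these samples only. The question put to the data was whether the levels of these transcripts in the brain of the offspring differed with the diet of the mother.

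Vasopressin and oxytocin are short peptide hormones made mainly by large neurons of the supraoptic and paraventricular nuclei of the hypothalamus, whose axons release them into the blood in the posterior pituitary. Vasopressin acts on the kidney to retain water and, in the brain and pituitary, takes part in stress and social behavior, and it is also made by clock neurons of the suprachiasmatic nucleus. Oxytocin drives uterine contraction and milk ejection and also acts in the brain, including on feeding and social behavior. Each is cut from a precursor that also holds a neurophysin, a carrier protein, and the vasopressin precursor ends in a further piece, copeptin.

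The genes are close relatives, which bears on how reads are told apart. No rat sequence was used here, and the stretches shown are those of the mouse orthologues (GENCODE M21, build GRCm38), where both genes have 3 exons and lie next to each other on chromosome 2 in opposite orientation, with their 3′ ends facing. The 27 bases that encode the mature hormone lie in coding exon 1 of each gene, at chr2:130582446-130582472 (minus strand) for Avp and chr2:130576267-130576293 (plus strand) for Oxt. They differ at 5 bases, given in capitals, and are shown because this is the part that makes the hormones distinct.
Avp: tgctacTtccagaactgcccAAGAggc
Oxt: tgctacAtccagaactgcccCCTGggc
Exon 2, which encodes most of the neurophysin, is the part that makes the transcripts hard to tell apart. It is coding throughout, 202 bases long in both genes, at chr2:130581056-130581257 (minus strand) for Avp and chr2:130576591-130576792 (plus strand) for Oxt, and 95.5% of its positions were identical. The longest stretch shared by the transcripts ran over 127 bases, of which 125 were in exon 2, given in capitals, and 2 at the end of exon 1.
Avp: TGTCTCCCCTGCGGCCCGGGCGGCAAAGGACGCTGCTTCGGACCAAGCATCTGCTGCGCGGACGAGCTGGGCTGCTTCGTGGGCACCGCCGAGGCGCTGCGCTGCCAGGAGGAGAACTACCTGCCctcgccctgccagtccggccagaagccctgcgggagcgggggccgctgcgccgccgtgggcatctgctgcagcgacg
Oxt: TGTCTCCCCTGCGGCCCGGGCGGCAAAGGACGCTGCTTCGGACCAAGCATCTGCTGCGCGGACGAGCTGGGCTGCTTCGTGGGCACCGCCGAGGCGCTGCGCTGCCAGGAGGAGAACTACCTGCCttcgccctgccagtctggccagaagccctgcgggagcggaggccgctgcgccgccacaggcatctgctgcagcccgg
A mouse read lying wholly within the capitals would match both genes. How such reads were assigned in the rat table, and whether its counting used strand, is not given in the sources used here. The split of counts between Avp and Oxt is therefore uncertain, and their sum is given beside them.

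Both genes were detected in some brains and listed at 0 in others of the same group. Avp had 382 counts in MHFD replicate 1, 0 in MHFD replicate 2 and 55 in MHFD replicate 3. In the MND group it had 36 counts in replicate 1 and 0 in replicates 2 and 3. Avp was thus found in 3 of the 6 brains, in both groups, and by far the most of its counts came from a single MHFD brain. Oxt had 67, 0 and 17 counts in MHFD replicates 1, 2 and 3, and 0, 0 and 17 counts in MND replicates 1, 2 and 3. It was also found in 3 brains, and the one with the most Avp again had the most Oxt. Both genes were at 0 in replicate 2 of each group, Avp alone was found in MND replicate 1, and Oxt alone in MND replicate 3.

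The libraries held between 43679373 and 61385917 counts, so the zeros did not follow depth: MND replicate 1, at 60640093 counts, had no Oxt count, and MHFD replicate 3, at 43679373 counts, had counts of both genes. Expressed as CPM, the count scaled to a common library size after TMM normalization, Avp stood at 6.24 CPM in MHFD replicate 1 (95% exact Poisson interval 5.63 to 6.90), 1.26 CPM in MHFD replicate 3 (0.947 to 1.64) and 0.594 CPM in MND replicate 1 (0.416 to 0.822). These intervals did not overlap, so with counts as deposited the 3 brains with Avp differed from one another by more than counting error. Oxt stood at 1.09 CPM in MHFD replicate 1 (0.848 to 1.39), 0.389 CPM in MHFD replicate 3 (0.226 to 0.622) and 0.328 CPM in MND replicate 3 (0.191 to 0.526). The last 2 intervals overlapped, and these brains could not be told apart in Oxt at this depth.

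A count of 0 was taken to allow a level of up to 3 counts (close to a one-sided 95% Poisson limit), which was 0.0632 CPM in MHFD replicate 2 and 0.0576 CPM in MND replicate 2 for both genes, 0.0580 CPM in MND replicate 3 for Avp and 0.0495 CPM in MND replicate 1 for Oxt. In every library more genes held exactly 4 counts (430 to 487 genes) than 3 (223 to 272) or 5 (132 to 160), so a fragment may have added more than 1 count. Were it 4 counts, the limit for a 0 would be 12 counts, or 0.253 CPM in MHFD replicate 2, 0.231 CPM in MND replicate 2, 0.232 CPM in MND replicate 3 and 0.198 CPM in MND replicate 1. The interval of Avp would then be 5.08 to 7.66 CPM in MHFD replicate 1, still apart from the others, while that of MHFD replicate 3 (0.700 to 2.15 CPM) would overlap that of MND replicate 1 (0.271 to 1.13 CPM). For Oxt, the interval of MHFD replicate 1 (0.647 to 1.78 CPM) would overlap that of MHFD replicate 3 (0.0996 to 0.936 CPM). The counts 382 and 55 of Avp and 67 and 17 of Oxt are not multiples of 4, so 4 counts cannot hold for every fragment. Intervals and limits cover counting error only. Of the 32623 genes of the table, 11043 had no count in any library. In MHFD replicate 1, the highest library of Avp, 11026 genes had a higher CPM than Avp, and 15094 genes did in MND replicate 1. For Oxt, 14127 genes were higher in MHFD replicate 1 and 15670 in MND replicate 3.

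**Figure D1:**
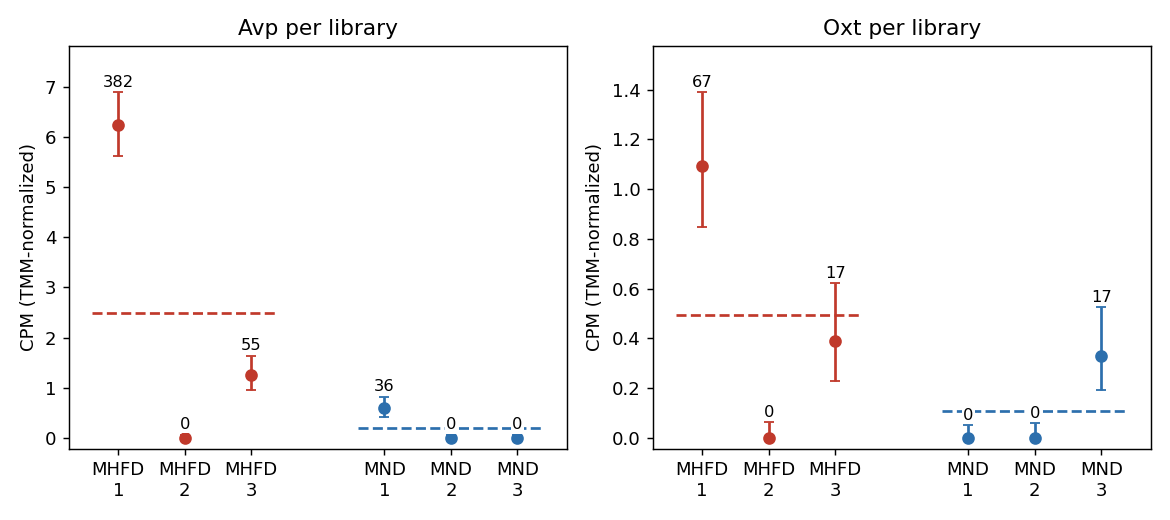
Avp (left) and Oxt (right) in each of the 6 libraries, in CPM after TMM normalization on a linear axis, with the count above each point, the 95% exact Poisson interval as bars (for a count of 0, the limit of 3 counts) and the group mean as a dashed line. MHFD replicate 1 was highest for both genes, at 382 and 67 counts, and replicate 2 of both groups was at 0.

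Avp averaged 2.50 ± 3.30 CPM over the MHFD brains and 0.198 ± 0.343 CPM over the MND brains (SD, n = 3 each). The SD was larger than the mean in both groups, and the groups overlapped at 0. The fitted log2 fold change was 3.61 (standard error 2.03, 95% interval -1.21 to 8.43). Its adjusted p was 0.652 (quasi-likelihood test of edgeR, with the Benjamini-Hochberg method over the 16776 genes tested). In a two-sided exact permutation test of log2 CPM p was 0.4, where 3 animals against 3 cannot go below 0.1. Avp therefore did not pass the test, and the interval ran from a lower level in the MHFD brains to a much higher one.

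Oxt followed the same outline at a lower level. It averaged 0.495 ± 0.555 CPM over the MHFD brains and 0.110 ± 0.190 CPM over the MND brains (SD, n = 3 each), and the groups again overlapped. The log2 fold change was 2.19 (standard error 1.84, 95% interval -2.17 to 6.54), with an adjusted p of 0.761 in edgeR's test. The two-sided exact permutation test gave p = 0.4. Oxt did not pass the test either.

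Neither gene was among the 8.68% of tested genes with an unadjusted p under 0.05 (4.9% higher and 3.78% lower in the MHFD brains) or the 0.00596% with an adjusted p under 0.05 (1 gene). Nor was either among the 13.9% whose groups did not overlap. By size alone the fitted changes were large. An absolute log2 fold change at least as large was held by 0.179% of tested genes for Avp and 0.811% for Oxt. These shares pool genes of every level, and both members were chosen with earlier results of these data known, so the shares carry no test. In bulk tissue, fewer neurons of a type and less RNA in each of them cannot be told apart.

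Summing both genes in each brain, a step added after the data were seen, gives a value that does not depend on how shared reads were split between them, although reads counted for both genes would enter it 2 times and discarded reads would be missing. The sum was 449, 0 and 72 counts in MHFD replicates 1, 2 and 3 and 36, 0 and 17 counts in MND replicates 1, 2 and 3. Each group then had 1 brain at 0 and 2 with counts. The sum averaged 2.99 ± 3.85 CPM over the MHFD brains and 0.307 ± 0.297 CPM over the MND brains (SD, n = 3 each). The log2 fold change of the sum was 3.27 (standard error 1.78, 95% interval -0.96 to 7.49), with an adjusted p of 0.644 in edgeR's test. It was 1.40 without MHFD replicate 1 (edgeR adjusted p = 0.770).

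A single brain set much of the size of these differences. MHFD replicate 1 held 87.4% of the Avp counts of its group (95% exact binomial interval 83.9 to 90.4) and 79.8% of the Oxt counts (69.6 to 87.7), while it held 40.1% of the sequencing depth of the group. With the counts divided by 4 these shares were 87.3% (79.6 to 92.9) and 81.0% (58.1 to 94.6). Without MHFD replicate 1 the log2 fold change was 1.63 for Avp (edgeR adjusted p = 0.771) and 0.82 for Oxt (edgeR adjusted p = 0.891). On the MND side, the 36 Avp counts and the 17 Oxt counts each came from 1 brain. Without MND replicate 1 the MND group was at 0 for Avp in both remaining libraries, and without MND replicate 3 it was at 0 for Oxt. The fitted values of 10.01 for Avp and 7.73 for Oxt therefore depend on how the fit treats a group of zeros, and give no size. Their adjusted p in edgeR's test was 0.904 and 0.479.

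**Figure D2:**
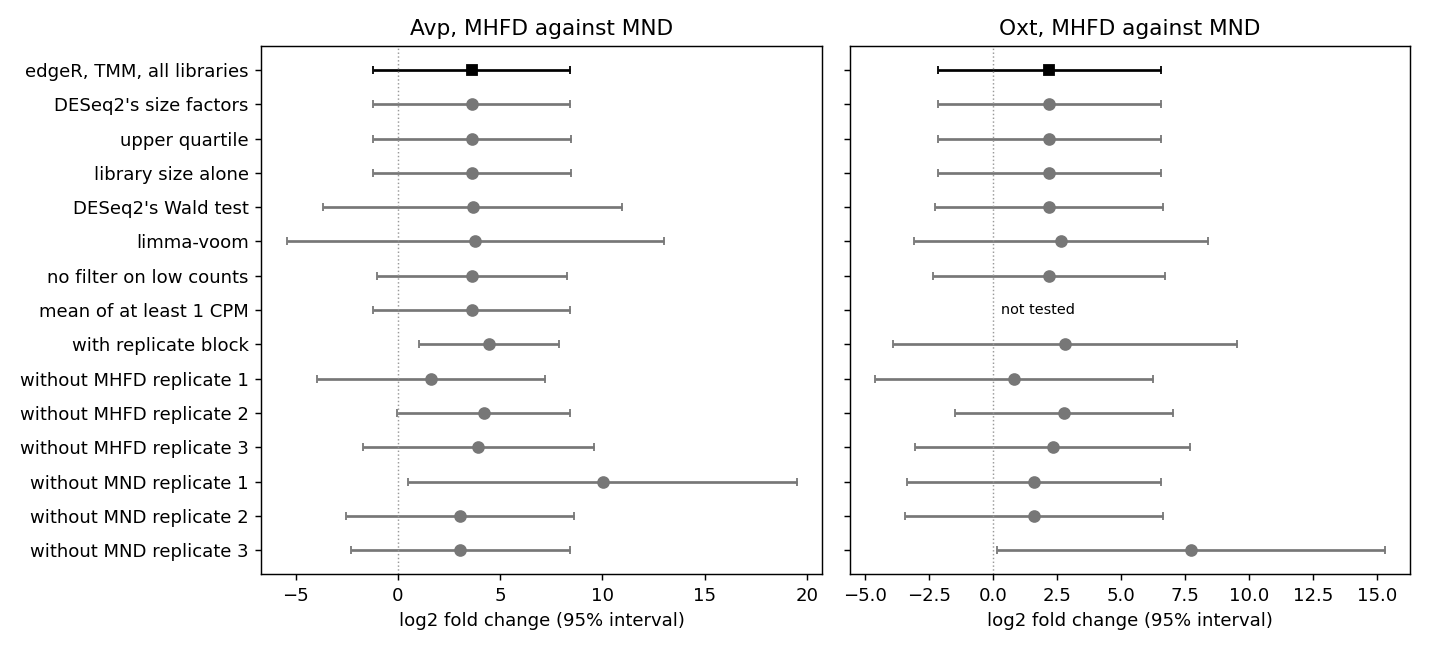
Log2 fold change of Avp (left) and Oxt (right), MHFD against MND, with its 95% interval, in the fit of all 6 libraries (square) and under each alternative (circles), where positive values mean a higher level in the MHFD group. Every estimate was positive, from 1.63 to 10.01 for Avp and from 0.82 to 7.73 for Oxt, and no adjusted p was under 0.05. The values 10.01 and 7.73 come from fits with the MND group at 0 and give no size.

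The spread between brains was wide even for tested genes of this level. Over the 6 libraries the coefficient of variation (SD divided by mean) was 182% for Avp and 141% for Oxt, against a median of 17.1% over all tested genes. Only 14 of the 16776 tested genes varied more than Avp and 47 more than Oxt. Among the 2093 other tested genes with a mean within 2-fold of that of Avp (1.35 CPM), the median was 35.9% and 4 varied more. Among the 1548 other tested genes within 2-fold of Oxt (0.302 CPM), it was 59.8% and 15 varied more. The filter on low counts had removed genes that reached the minimum count in too few libraries, so such genes are absent from these ranks. As the members were chosen with earlier results of these data known, the ranks are descriptions and carry no test.

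**Figure D3:**
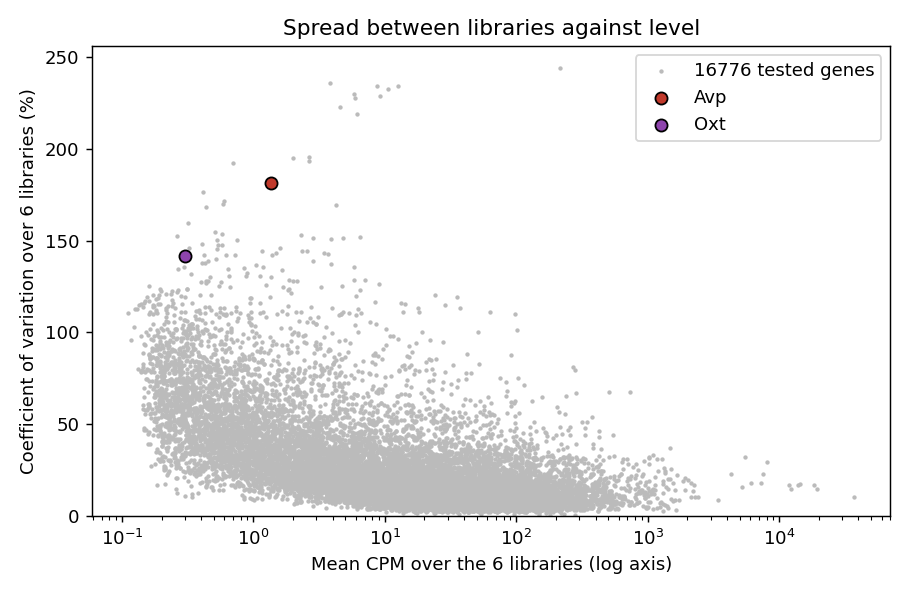
Coefficient of variation over the 6 libraries in percent (linear axis) against mean CPM (log axis) for the 16776 tested genes in grey, with Avp and Oxt marked. Avp, at 182%, and Oxt, at 141%, lie near the upper edge of the tested genes at their level. Genes removed by the filter on low counts are not shown.

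Zeros beside high counts were rare in the table. Of the 11593 genes that reached at least the 382 counts of Avp in some library, 80 were at 0 in at least 1 library and 23 in at least 3, as Avp was. Of the 14952 genes that reached the 67 counts of Oxt, 293 were at 0 in at least 1 library and 67 in at least 3. Neither set was matched for level, since each took every gene that reached at least the count named. Both members belonged to the 19 tested genes at 0 in replicate 2 of both groups. The zeros of Avp fell on the same 3 libraries in 4 tested genes, and those of Oxt on the same 3 in 2 tested genes, each gene itself included. Avp in MHFD replicate 1 was 4.97-fold above its next library. It was 1 of 7 genes with at least 100 counts that stood at least 4-fold above all other libraries there, and the other libraries had from 1 to 29 such genes, the most in MHFD replicate 3. Whether the dissected tissue held the same share of hypothalamus in each brain was not tested, since the table does not pair identifiers with symbols and no marker genes could be looked up.

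Avp and Oxt were then compared within libraries. Only MHFD replicates 1 and 3 had counts of both, with log2 ratios of Avp to Oxt of 2.50 and 1.67 (0.5 added to each count). In MND replicate 1 the ratio was 6.19 and in MND replicate 3 it was -5.13, in each case with 0 counts of one gene, and in replicate 2 of both groups it was 0 from empty counts. As 4 of the 6 ratios, all 3 of the MND group among them, were set by the added 0.5, the balance of the hormones could not be compared between the groups.

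Across the 6 brains, log2 CPM of Avp and Oxt had a Pearson correlation of 0.618 (exact permutation p = 0.125) and a Spearman correlation of 0.742 (exact permutation p = 0.125), each with an adjusted p of 0.125 over the 2 measures. The libraries farthest from the median of Avp were MHFD replicates 1 and 3, the only ones with counts of both genes. Without them r was -0.333, a value that the zeros of the other 4 libraries fix, so the relation could not be tested apart from these 2 brains. Libraries at 0 took a log2 CPM set by the prior count of 2, so the Pearson correlation depends on that setting. Reads shared by both genes could enter both values, which was not tested.

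Among the 14497 other tested genes that averaged 1 CPM or more, the pattern over the 6 libraries most like that of Avp and Oxt together (the mean of their standardized log2 CPM) was that of ENSRNOG00000019702 (r = 0.981), followed by ENSRNOG00000003332 (r = 0.973). ENSRNOG00000019702 ranged from 15.3 CPM in MND replicate 2 to 19.3 CPM in MHFD replicate 1. ENSRNOG00000003332 ranged from 10.6 CPM in MND replicate 2 to 14.1 CPM in MHFD replicate 1. Both were highest in MHFD replicate 1, then in MHFD replicate 3, and lowest in MND replicate 2, over a much narrower range than the hormone genes. The pattern most opposed was that of ENSRNOG00000048164 (r = -0.993), from 7.92 CPM in MHFD replicate 1 to 10.3 CPM in MND replicate 2, and then that of ENSRNOG00000018381 (r = -0.989). In all, 45 genes had r above 0.9 and 50 below -0.9. With 6 libraries and so many genes compared, these are descriptions of the libraries and carry no test.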

How the data were processed

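Total RNA of each brain was sequenced on Illumina libraries, 1 library per animal. The authors deposited whole counts per gene, without normalization. The processing notes name Bowtie and the mouse build mm10, whereas all 32623 identifiers are rat Ensembl genes; the counting program, rat build and annotation are not given in the sources used here. The reference tables are of the mouse and matched 0 identifiers, so the 12 planned lists of marker and pathway genes, with the tests that used them, were not run. The whole table was fitted with edgeR 4.0.16 under R 4.3.3, after filterByExpr (minimum count 10, minimum total 15; 16776 genes kept, Avp and Oxt among them), by TMM scaling and the quasi-likelihood test on group alone, with Benjamini-Hochberg adjustment over all tested genes and a threshold of 0.05. Standard errors are the log2 fold change over the square root of F, and log2 CPM used a prior count of 2. Both members passed the filter through libraries of both groups together. Single values were compared by exact permutation tests. Named genes were Avp, Oxt and, without symbols, at most 2 identifiers in each direction with the most similar or opposed pattern. Alternatives used limma 3.58.1, DESeq2 1.42.0, other scalings and filters, a replicate block and the omission of single libraries. The programs were tested on simulated data. No pair of libraries within a group was a copy (chi-square per gene at least 31.1). Members and gene lists were chosen with earlier results of these data known. Mouse sequences came from GENCODE M21.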

Additional observations from a re-analysis of the deposited data

How the results depend on the processing

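The direction of the differences held in all 14 alternatives for Avp, in all 13 for Oxt and in all 14 for their sum, and no adjusted p was under 0.05. Apart from left-out libraries, the fitted log2 difference lay between 3.61 and 4.44 for Avp and between 2.18 and 2.80 for Oxt. Omitting each library in turn gave 1.63 to 10.01 and 0.82 to 7.73, where the upper ends come from fits with the MND group at 0 and give no size. The adjusted p ran from 0.615 to 0.951 for Avp and from 0.479 to 0.952 for Oxt, for which DESeq2 gave none. Oxt was not tested with a mean of at least 1 CPM, nor either gene with the counts divided by 4 (chosen after seeing the data), as they failed the filters. The sum lay between 2.21 (limma-voom) and 3.29, and between 1.40 (without MHFD replicate 1) and 4.17 when single libraries were omitted; without MHFD replicate 2 it was 3.85 (95% interval 0.64 to 7.07, edgeR adjusted p = 0.951). The planned test of the Avp to Oxt ratio is void, as 4 of the 6 ratios were set by the pseudocount: the difference of 1.04 lay between -1.71 (without MND replicate 3) and 3.95 when single libraries were omitted.

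Over all genes, the number with an adjusted p under 0.05, which was 1, became 196 with DESeq2's Wald test, 0 with limma-voom (beside 1424 unadjusted), 0 with the counts divided by 4 (1371) and, with each library left out, from 0 (without MHFD replicate 3, beside 902) to 28 (without MHFD replicate 1). The number with an unadjusted p under 0.05 ran from 818 (without MHFD replicate 2) to 2904 (without MHFD replicate 1). The cause was not tested.

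With the replicate number as a block, the log2 fold change was 4.44 for Avp (edgeR adjusted p = 0.768, unadjusted under 0.05), 2.80 for Oxt (edgeR adjusted p = 0.849) and 2.95 for the sum (95% interval 1.29 to 4.62, edgeR adjusted p = 0.768, unadjusted under 0.05), the difference in the ratio was 1.04, and 0 genes had an adjusted p under 0.05, beside 1078 unadjusted. Same-numbered libraries share only a number: their deviations from the group means correlated at -0.0866, 0.00108 and -0.144, and no library correlated best with its own number.

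Tests on the planned lists, and the comparison with other hypothalamic peptides, were not run for want of symbols.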
